A study of Mus musculus with 8 samples.

Results

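The genes that cut, process and rejoin DNA during antigen receptor gene assembly were followed in RNA-seq of mouse DN3 thymocytes, the CD4- CD8- CD44- CD25+ stage at which the T cell receptor beta locus is rearranged. The set was defined by gene name and no value was used to pick it, although earlier results of these data were known. It holds 10 genes: Rag1, Rag2, Dntt, Xrcc4, Xrcc5, Xrcc6, Lig4, Prkdc, Dclre1c and Nhej1. All 10 were found among the 16538 genes of the deposited table, and all 10 passed the filter on low values. DN3 cells were sorted from 6-week-old C57BL/6 mice in 2 groups of 4 libraries. Control mice were Sel1l flox/flox without Cre (called WT in the sample titles), and Sel1l CKO mice were Sel1l flox/flox with an hCD2-iCre transgene, in which human CD2 control elements drive Cre from the earliest thymic progenitors onwards in the whole T lineage. Both groups therefore carried the floxed alleles, and no group carried the Cre without them. SEL1L is the adaptor of the HRD1 ubiquitin ligase in endoplasmic reticulum-associated degradation, and the libraries were made to ask how its loss acts on thymocytes at beta-selection. The methods count independent biological replicates, without saying whether each library came from 1 mouse, and the p-values measure the spread between these libraries.

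In V(D)J recombination, the RAG1 and RAG2 proteins together cut the DNA beside gene segments and leave hairpin-sealed coding ends. The Ku70-Ku80 ring (Xrcc6 and Xrcc5) slides onto the broken ends and recruits the kinase DNA-PKcs (Prkdc), which activates the nuclease Artemis (Dclre1c) to open the hairpins. Terminal deoxynucleotidyl transferase, TdT (Dntt), adds untemplated nucleotides to the opened ends, and XRCC4, DNA ligase IV (Lig4) and XLF (Nhej1) seal them. Rag1, Rag2 and Dntt are restricted to developing lymphocytes, whereas the end-joining genes are used by nearly all cells to repair double-strand breaks. Mice that lack RAG1, RAG2, DNA-PKcs, Artemis or a functional ligase IV complex arrest T cell development at or near the DN3 stage, because a rearranged beta chain is needed to pass it.

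The promoters of the 3 lymphocyte-restricted members are shown as those of the genes particular to receptor assembly, and that of Dclre1c because it had the largest difference between genotypes. The RefSeq promoter table, on GRCm38.p6, held an entry for 9 of the 10 members, all but Prkdc. The sequences are the 250 bases before the transcription start, read 5′ to 3′ on the gene's strand. Capitals mark E-box letters (CANNTG, the motif of E proteins such as those encoded by Tcf3 and Tcf12) and the Runx core (TGTGGT), searched on both strands.
Rag1, chr2:101649533-101649782, minus strand: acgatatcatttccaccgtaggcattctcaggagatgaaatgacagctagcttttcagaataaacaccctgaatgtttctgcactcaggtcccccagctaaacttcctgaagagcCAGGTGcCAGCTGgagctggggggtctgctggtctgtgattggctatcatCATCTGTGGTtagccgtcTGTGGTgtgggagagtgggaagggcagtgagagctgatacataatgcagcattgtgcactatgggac
Rag2, chr2:101624462-101624711, plus strand: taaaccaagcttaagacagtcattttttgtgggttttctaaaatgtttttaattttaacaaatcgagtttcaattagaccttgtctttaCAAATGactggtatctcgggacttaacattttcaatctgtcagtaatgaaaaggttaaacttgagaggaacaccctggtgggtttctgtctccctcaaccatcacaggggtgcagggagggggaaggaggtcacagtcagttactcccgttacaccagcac
Dntt, chr19:41029025-41029274, plus strand: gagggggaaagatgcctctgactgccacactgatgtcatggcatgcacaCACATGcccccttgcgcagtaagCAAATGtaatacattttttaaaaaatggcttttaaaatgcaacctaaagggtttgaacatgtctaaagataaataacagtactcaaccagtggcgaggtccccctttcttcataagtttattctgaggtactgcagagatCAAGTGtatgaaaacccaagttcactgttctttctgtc
Dclre1c, chr2:3423881-3424130, plus strand: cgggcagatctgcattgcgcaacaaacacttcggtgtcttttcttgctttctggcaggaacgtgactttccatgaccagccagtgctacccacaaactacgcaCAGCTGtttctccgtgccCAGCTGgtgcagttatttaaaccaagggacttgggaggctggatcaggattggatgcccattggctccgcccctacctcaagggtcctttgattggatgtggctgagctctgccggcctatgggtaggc
The Rag1 window held 3 E-box matches, with first bases at -135, -128 and -85 from the start, and 2 Runx matches at -81 and -67, of which the first shares its first 2 bases with an E-box. The Rag2 window held 1 E-box match at -161, the Dntt window held 3 at -201, -178 and -38, and the Dclre1c window held 2, at -147 and -129. E-box letters are common, since 66.2% of the 32851 promoters in the table had at least 1 match, and 4614 of them had a Runx match. Among the 9 members with an entry, Rag1 was the only one with a Runx match. The Dclre1c window also held 3 CCAAT boxes (CCAAT, in 33.8% of all promoters) and 1 GC box (GGGCGG, in 32.7%), and neither Rag2 nor Dntt held any of these. The Rag1 window held 1 CCAAT box and 1 match to the core of RBPJ, the DNA-binding partner of Notch (TGGGAA, in 21.6%). A Lig4 window also held an RBPJ match, at -95, and the Xrcc5 window a CCAAT box. GC boxes were also in windows of Lig4, Nhej1, Xrcc4 and Xrcc6. Letters of the stress response elements CHOP-ATF4 (TGATGNAAT, in 0.816% of promoters), UPRE (TGACGTGG, in 0.563%) and ERSE (CCAAT and CCACG with a fixed gap between them, in 0.113%) were not in the window of any of the 9 members, nor were those of the TATA box (TATAAA, in 12.4%). A match or its absence describes only these letters in this window.

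Values are RPKM, a read number divided by both gene length and library size, and the steps between low values showed that the length is that of the whole gene span with introns. Reads counted per library lay between 32900253 and 50401359. To compare levels between genes, the recovered reads were rescaled to the exon length (exon RPKM). This scale treats all counted reads as exonic and all annotated exons of a gene as used, which was not tested. On that scale Dntt was the highest member, at 952 ± 57.5 exon RPKM (SD, n = 4) in control cells. Xrcc6 and Rag1 followed at 121 ± 9.12 and 119 ± 11.1, and their control libraries overlapped. Xrcc5 was at 21.6 ± 0.731 and Rag2 at 18.7 ± 1.54, and Lig4 was at 9.34 ± 0.643. Prkdc at 6.10 ± 0.220 overlapped Nhej1 at 5.46 ± 0.757. The lowest were Dclre1c at 2.91 ± 0.287 and Xrcc4 at 2.83 ± 0.384, which also overlapped. Partners of the same complex differed in RNA level. Rag1 was 6.39-fold above Rag2 in control cells, and Xrcc6 was 5.58-fold above Xrcc5.

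**Figure D1:**
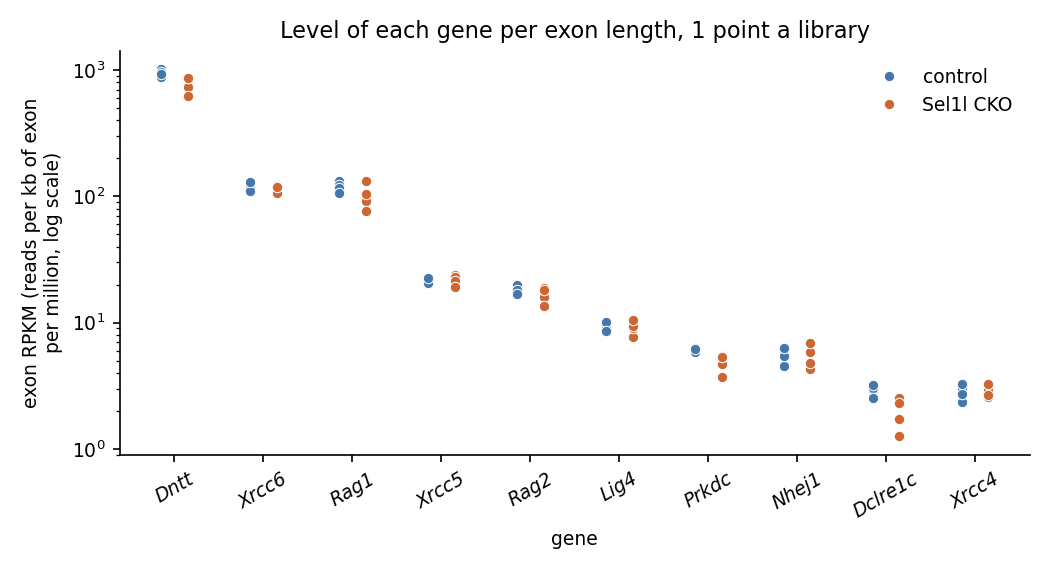
Level of the 10 genes in exon RPKM (log axis), with 1 point for each of the 4 control (blue) and 4 Sel1l CKO (orange) libraries and genes ordered by their control mean. Dntt stood highest at 952 in control cells and Xrcc4 lowest at 2.83, and in Sel1l CKO cells the means of Nhej1 and Prkdc, and those of Xrcc4 and Dclre1c, changed places.

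Comparison of Sel1l CKO with control libraries gave no member past the threshold. In limma's moderated test on log2(RPKM + 0.01), 0 of 10 members had an adjusted p under 0.05, where 3.39% of the 11567 tested genes did, 2.64% higher and 0.752% lower in Sel1l CKO cells. Limma voom on the recovered reads also called 0, against 4.26% of the genes it tested, and gave the same count of 3 members as limma at an unadjusted p under 0.05, against 20.6%. The 3 members at an unadjusted p under 0.05 in limma were Dntt, Prkdc and Dclre1c, all lower in Sel1l CKO cells. Of all tested genes 18.9% passed that level, 10.1% lower and 8.81% higher. The 4 Sel1l CKO libraries all lay below the 4 control libraries for 2 members, Dntt and Prkdc, where 6.25% of tested genes did so, and above them for 0 members, where 6.95% did. The log2 fold change was below 0 for 8 members (53.3% of all tested genes), and for 5 members it lay within 0.05 of 0 (18.3%). The median over the 10 was -0.11, and over all tested genes -0.02.

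The targeted gene was measured first as a check of the labels. Sel1l gave 1.83, 1.66, 1.61 and 1.57 RPKM from control libraries 1 to 4, and 0.917, 0.876, 1.32 and 1.23 RPKM from Sel1l CKO libraries 1 to 4. All Sel1l CKO libraries were below all control libraries, with a log2 fold change of -0.64 ± 0.14 (SE, limma adjusted p = 0.0477), and replicates 3 and 4 kept more Sel1l RNA than replicates 1 and 2. Reads over the whole gene are counted, so transcripts that lack only the floxed part would be counted too. The call was lost in 11 of the 22 alternative fits, where the adjusted p ran from 0.0147 to 0.137 over all of them, and leaving out any 1 control library, or Sel1l CKO replicate 1, 2 or 4, was enough to lose it. In bulk RNA, fewer cells that express a gene and less RNA per cell cannot be told apart.

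The recombinase genes were lower on average in Sel1l CKO cells. The differences in mean were smaller than the SD between Sel1l CKO libraries and larger than the SD between control libraries. Rag1 (ENSMUSG00000061311.6, GRCm38 chromosome 2, 101638282 to 101649501, minus strand), which encodes the catalytic subunit, gave 78.2, 72.0, 68.7 and 62.5 RPKM from control libraries 1 to 4, and 77.4, 54.1, 62.0 and 45.4 RPKM from Sel1l CKO libraries 1 to 4. Sel1l CKO replicate 1 lay with the highest control libraries, and the other 3 lay below every control library. The means were 70.4 ± 6.56 and 59.7 ± 13.6 RPKM (SD, n = 4), or 84.9% of control. The log2 fold change was -0.26 with a 95% interval from -0.60 to 0.09 (limma adjusted p = 0.391; exact permutation p = 0.2, two-sided). Single libraries weighed on it, since it was -0.14 without Sel1l CKO replicate 4 and -0.39 without Sel1l CKO replicate 1.

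Rag2 (ENSMUSG00000032864.4, chromosome 2, 101624718 to 101632529, plus strand) encodes the accessory subunit that binds chromatin marked by trimethylated histone H3. It gave 8.71, 8.76, 7.97 and 7.34 RPKM from control libraries 1 to 4, and 8.27, 6.97, 7.88 and 5.95 RPKM from Sel1l CKO libraries 1 to 4. The groups overlapped, and within Sel1l CKO the libraries stood in the same order as for Rag1, with replicate 1 highest and replicate 4 lowest. Its log2 fold change was -0.18 (95% interval -0.43 to 0.07, limma adjusted p = 0.413), and it was -0.09 without Sel1l CKO replicate 4.

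Rag1 and Rag2 lie tail to tail on chromosome 2, with 5753 bases between their ends, and are known to be expressed together. The ratio of Rag1 to Rag2 per exon length was 6.69, 6.11, 6.42 and 6.33 in control replicates and 6.96, 5.78, 5.85 and 5.68 in Sel1l CKO replicates. These ratios overlapped (exact permutation p = 0.371, and 0.743 adjusted over the 4 gene pairs compared). A further gene, B230118H07Rik, overlaps both, with 80 exon bases on the strand of Rag1 (1.21% of the Rag1 exons) and 208 opposite Rag2 (6.07%). It averaged 0.0510 ± 0.00680 RPKM in control cells, against 0.0595 ± 0.0208 RPKM in Sel1l CKO cells (SD, n = 4), and the groups overlapped.

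Dntt (ENSMUSG00000025014.13, chromosome 19, 41029275 to 41059525, plus strand), the gene of TdT, gave 67.1, 77.2, 73.8 and 70.3 RPKM from control libraries 1 to 4, and 55.9, 46.9, 65.5 and 65.5 RPKM from Sel1l CKO libraries 1 to 4. The groups did not overlap, although the gap between the lowest control library and the highest Sel1l CKO library was small beside the spread within Sel1l CKO. The means were 72.1 ± 4.35 and 58.4 ± 8.90 RPKM (SD, n = 4), or 81.1% of control, and each library held at least 64025 Dntt reads, for a counting CV (the SD from counting as a percent of the mean) of 0.388% in Sel1l CKO cells. Its log2 fold change was -0.31 (95% interval -0.57 to -0.06). This difference did not pass the adjusted threshold (limma adjusted p = 0.177), while the exact permutation test gave 0.0286, the smallest two-sided p that 4 against 4 libraries allow.

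**Figure D2:**
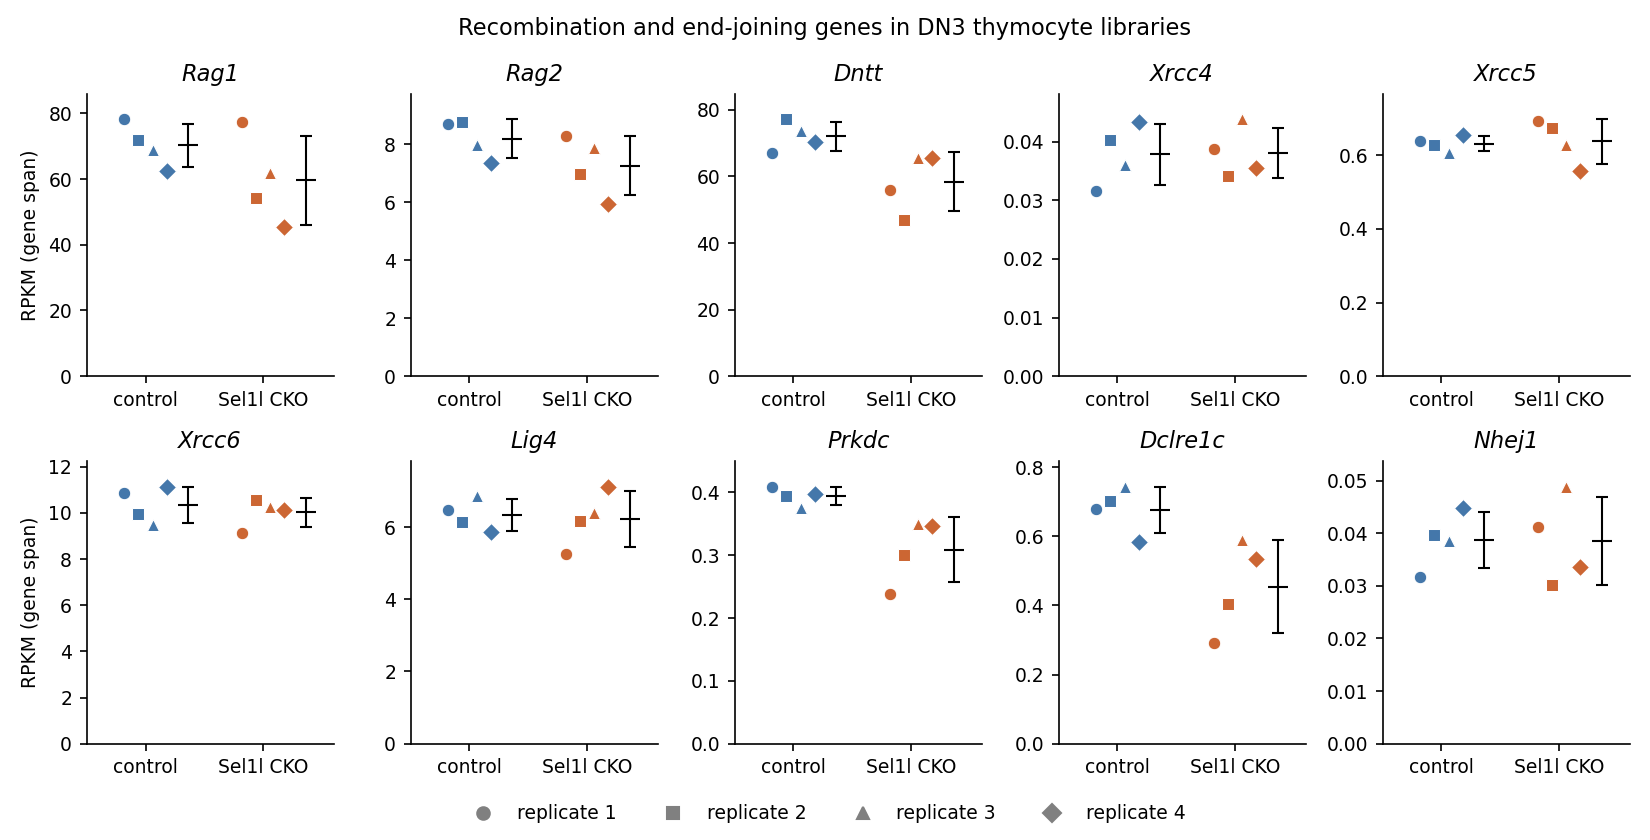
RPKM of each of the 10 genes in the 4 control (blue) and 4 Sel1l CKO (orange) libraries, with a marker shape for each replicate number, the mean ± SD in black, and axes that start at 0. The Sel1l CKO points lie below all control points for Dntt and Prkdc, and the groups overlap for the other 8 genes.

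None of the 4 genes for recognition and opening of the ends passed the adjusted threshold, and the means of Prkdc and Dclre1c lay further from control than those of the Ku genes. Xrcc6 (ENSMUSG00000022471.14, chromosome 15, 81987835 to 82040085, plus strand), the gene of Ku70, gave 10.9, 9.95, 9.47 and 11.1 RPKM from control libraries 1 to 4, and 9.14, 10.6, 10.3 and 10.1 RPKM from Sel1l CKO libraries 1 to 4. Xrcc5 (ENSMUSG00000026187.8, chromosome 1, 72307421 to 72394952, plus strand), the gene of Ku80, gave 0.639, 0.626, 0.605 and 0.655 RPKM from control libraries 1 to 4, and 0.693, 0.673, 0.627 and 0.557 RPKM from Sel1l CKO libraries 1 to 4. The groups overlapped for both genes, with a log2 fold change of -0.05 ± 0.08 (SE, limma adjusted p = 0.772) for Xrcc6 and 0.01 ± 0.09 (adjusted p = 0.966) for Xrcc5. The 95% interval of the log2 fold change ran from -0.22 to 0.13 for Xrcc6 and from -0.20 to 0.21 for Xrcc5, or from 86.0% to 109% and from 87.3% to 116% of control, so that these were the most tightly bounded members. The ratio of Xrcc6 to Xrcc5 per exon length was 5.58 ± 0.245 in control and 5.41 ± 0.701 in Sel1l CKO libraries (SD, n = 4; exact permutation p = 0.686, adjusted 0.771). Xrcc6 shares 344 exon bases (7.69% of its exons) with Desi1 on the opposite strand, and the sources do not state whether the counting used strand.

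Prkdc (ENSMUSG00000022672.8, chromosome 16, 15637866 to 15842235, plus strand), the gene of DNA-PKcs, gave 0.409, 0.394, 0.375 and 0.397 RPKM from control libraries 1 to 4, and 0.238, 0.301, 0.350 and 0.346 RPKM from Sel1l CKO libraries 1 to 4. Control libraries lay close together, with a coefficient of variation (CV) of 3.61% between libraries, and all Sel1l CKO libraries were below them, with replicate 1 the lowest. The mean was 78.4% of control. The log2 fold change was -0.36 (95% interval -0.66 to -0.06, limma adjusted p = 0.196; exact permutation p = 0.0286).

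Dclre1c (ENSMUSG00000026648.18, chromosome 2, 3424131 to 3464130, plus strand), the gene of Artemis, had the largest difference of the 10. It gave 0.678, 0.702, 0.742 and 0.584 RPKM from control libraries 1 to 4, and 0.292, 0.403, 0.589 and 0.534 RPKM from Sel1l CKO libraries 1 to 4. Sel1l CKO replicates 1 and 2 were well below the control range, replicate 4 was just below it and replicate 3 was inside it. The means were 0.677 ± 0.0670 and 0.455 ± 0.134 RPKM (SD, n = 4), or 67.2% of control. The log2 fold change was -0.61 (95% interval -1.07 to -0.14, limma adjusted p = 0.165; exact permutation p = 0.0571). Between 443 and 1341 reads a library stood behind these values, which gives a counting CV of 3.82% in Sel1l CKO cells, against an observed CV of 29.4%. Dclre1c shares 357 exon bases (3.83% of its exons) with Suv39h2 on the opposite strand. The ratio of Prkdc to Dclre1c per exon length was 2.12 ± 0.266 in control and 2.53 ± 0.356 in Sel1l CKO libraries (SD, n = 4; exact permutation p = 0.143, adjusted 0.571).

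The genes of the ligation complex did not pass the threshold either, and their means lay close to control. Lig4 (ENSMUSG00000049717.9, chromosome 8, 9969049 to 9977686, minus strand) gave 6.47, 6.14, 6.87 and 5.86 RPKM from control libraries 1 to 4, and 5.24, 6.16, 6.38 and 7.12 RPKM from Sel1l CKO libraries 1 to 4. Its Sel1l CKO libraries held both the lowest and the highest of the 8 values, and the log2 fold change was -0.03 (95% interval -0.26 to 0.19, limma adjusted p = 0.888). Xrcc4 (ENSMUSG00000021615.13, chromosome 13, 89774027 to 90089608, minus strand), the gene of the scaffold that holds the ligase, gave 0.0316, 0.0403, 0.0360 and 0.0433 RPKM from control libraries 1 to 4, and 0.0387, 0.0341, 0.0438 and 0.0355 RPKM from Sel1l CKO libraries 1 to 4. The ratio of Lig4 to Xrcc4 per exon length was 3.36 ± 0.640 in control and 3.26 ± 0.594 in Sel1l CKO libraries (SD, n = 4; exact permutation p = 0.771). Nhej1 (ENSMUSG00000026162.7, chromosome 1, 74967139 to 75125200, minus strand), the gene of XLF, gave 0.0317, 0.0396, 0.0385 and 0.0448 RPKM from control libraries 1 to 4, and 0.0413, 0.0301, 0.0488 and 0.0337 RPKM from Sel1l CKO libraries 1 to 4. The groups overlapped for both, with a log2 fold change of 0.01 ± 0.21 (SE, limma adjusted p = 0.987) for Xrcc4 and -0.01 ± 0.23 (adjusted p = 0.979) for Nhej1. Xrcc4 shares 112 exon bases (2.66% of its exons) with Tmem167 on the opposite strand. The low RPKM of Xrcc4 and Nhej1 goes with long introns, since 369 to 607 and 175 to 299 reads a library were counted on them. Their intervals in limma on log2(RPKM + 0.01) were wide, from 72.4% to 140% of control for Xrcc4 and from 69.3% to 141% for Nhej1. Differences of that size would not have been detectable in that fit. The added 0.01 is large beside these values, so that scale understates their fold changes. With limma voom on the recovered reads the SE was 0.14 for Xrcc4 and 0.20 for Nhej1.

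**Figure D3:**
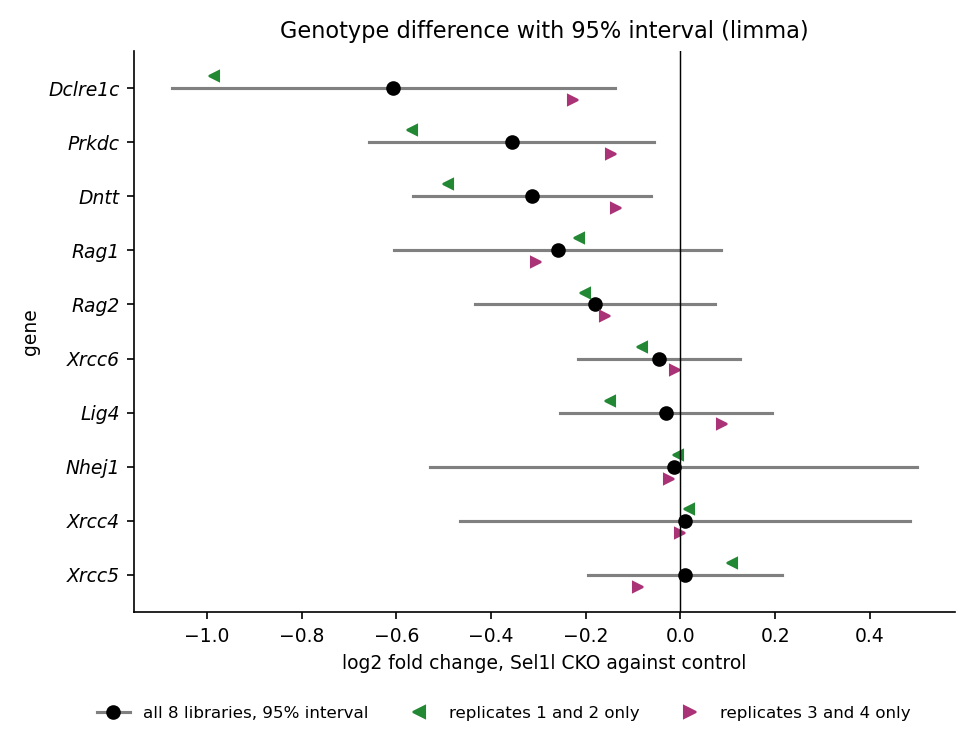
Log2 fold change of each gene in Sel1l CKO against control libraries (black points, grey bars for the limma 95% interval), with the value within replicates 1 and 2 (green) and within replicates 3 and 4 (purple). Dclre1c, Prkdc and Dntt lie to the left with intervals that leave out 0, and in all 3 the value within replicates 1 and 2 is the larger.

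The 3 members with the lowest p-values shared a pattern across libraries. Sel1l CKO replicates 3 and 4 stood apart from the other libraries on the second principal component (22.2% of the variance, after 48.4% on the first, which separated the genotypes), and 88 of all tested genes (0.761%) differed between replicates 3 and 4 and replicates 1 and 2 over both genotypes. No label names a batch, and a shared number is not known to mark a shared day or litter. Within replicates 1 and 2 the log2 fold change was -0.99 for Dclre1c, -0.57 for Prkdc and -0.49 for Dntt, and within replicates 3 and 4 it was -0.23, -0.15 and -0.14. The values of Sel1l moved with this, at -0.95 and -0.32. For Rag1 the same values were -0.21 and -0.30, and for Rag2 -0.20 and -0.16, close to each other in both cases. The interaction of genotype with this division of the replicates, a test chosen after the pattern was seen, gave 0.76 ± 0.26 (SE) for Dclre1c (limma adjusted p = 0.258), 0.35 ± 0.15 for Dntt (adjusted p = 0.310), 0.42 ± 0.21 for Prkdc (adjusted p = 0.380) and 0.64 ± 0.13 for Sel1l (adjusted p = 0.146). For Rag1 and Rag2 it gave -0.09 ± 0.28 and 0.04 ± 0.21. The interaction passed the adjusted threshold for 0 of the 11567 genes in limma. Its unadjusted p was under 0.05 for 1825 genes (15.8%), and of the members only for Dclre1c and Dntt. The pattern was not particular to these members. Markers of the DN3 stage went both ways, such as Notch3 at -1.03 and -0.17 and Ptcra at -0.32 and -0.47 within the same sets. With Sel1l CKO replicates 1 and 2 left out, the mean was 90.8% of control for Dntt, 88.4% for Prkdc and 83.0% for Dclre1c, and 76.3% for Rag1 and 84.4% for Rag2.

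**Figure D4:**
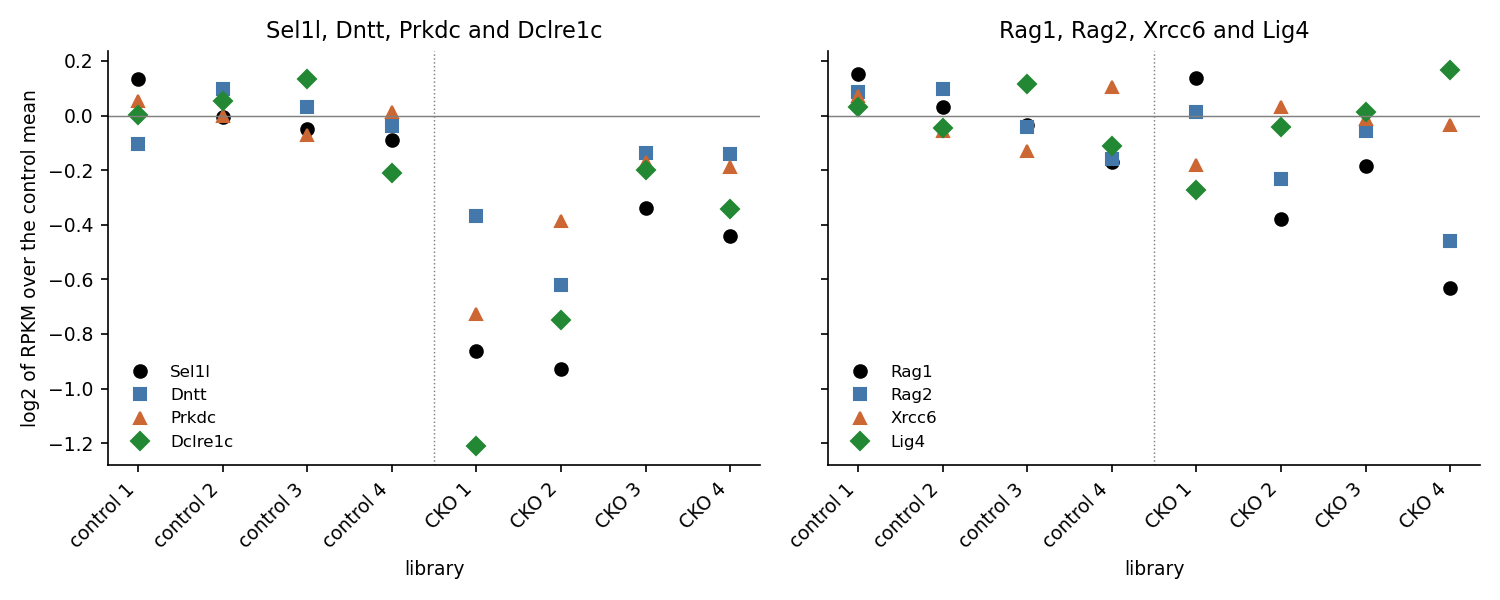
Log2 of the RPKM in each library over the control mean, for Sel1l, Dntt, Prkdc and Dclre1c (left) and Rag1, Rag2, Xrcc6 and Lig4 (right), with control libraries left of the dotted line and Sel1l CKO (CKO) libraries right of it. On the left, CKO 1 and 2 lie lower than CKO 3 and 4 for all 4 genes; on the right, Rag1 and Rag2 are lowest in CKO 4, while Xrcc6 and Lig4 are lowest in CKO 1 and Lig4 is highest in CKO 4.

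Members varied more between Sel1l CKO than between control libraries, and by the median CV so did all tested genes. The CV was larger in Sel1l CKO for 8 of the 10, the exceptions being Xrcc4 and Xrcc6. The median CV was 7.88% in control and 14.7% in Sel1l CKO libraries, and over all tested genes it was 9.71% and 13.1%. The widest spread was that of Dclre1c, followed by Rag1 at 22.7% and Nhej1 at 21.6%. Counting alone gives Nhej1 a CV of 6.61% and Rag1 one of 0.623%.

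Other genes of the same processes were read from 7 lists with 62 tested genes. Of these, 0 passed the adjusted threshold in limma, against 3.39% of all tested genes. At an unadjusted p under 0.05 there were 7 (11.3%), 2 higher and 5 lower in Sel1l CKO cells, against 18.9% of all tested genes. With limma voom 1 passed the adjusted and 10 the unadjusted threshold, against 4.26% and 20.6% of the genes it tested. Beside the counts by list, 53.3% of all tested genes had a log2 fold change below 0. In the accessory end-joining list, 9 of 10 genes had values above 0, with a median log2 fold change of 0.13. The highest was Tdp1, which encodes a phosphodiesterase that cleans blocked DNA ends, at 0.29 ± 0.10 (SE, limma adjusted p = 0.180). The lowest was Poll, the gene of the gap-filling DNA polymerase lambda, at -0.31 ± 0.20 (adjusted p = 0.433).

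Break signalling and end protection genes had values on both sides of 0, with 6 above and 7 below and a median of -0.03. H2ax, the histone variant phosphorylated around breaks, was highest at 0.21 ± 0.14 (SE, limma adjusted p = 0.440), and Trp53bp1, which encodes the end-protecting adaptor 53BP1, was lowest at -0.33 ± 0.14 (adjusted p = 0.262). All 7 genes of alternative end joining, the pathway that joins ends without Ku, had values above 0, with a median of 0.10. Fen1, a flap nuclease also used in replication, was highest at 0.34 ± 0.15 (adjusted p = 0.269). Parp1, which encodes a sensor of DNA breaks and was singled out after its values were seen, averaged 16.0 ± 0.759 RPKM in control cells, against 19.5 ± 1.15 RPKM in Sel1l CKO cells (SD, n = 4) with no overlap. Its log2 fold change was 0.28 ± 0.06 (SE, limma adjusted p = 0.0555), and it is the gene that limma voom called (adjusted p = 0.0422).

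Of the 6 genes listed as synaptic factors and RAG cofactors, 4 had values above 0, with a median of 0.15. Ccna2, the gene of cyclin A, was highest at 0.23 ± 0.19 (SE, limma adjusted p = 0.521), and Cdk2, the gene of its kinase partner, which marks RAG2 for destruction as cells enter S phase, was lowest at -0.03 ± 0.10 (adjusted p = 0.888). Cycling markers had 7 of 8 values above 0 and a median of 0.17, from Ccne1 at 0.34 ± 0.21 (adjusted p = 0.425) to Mki67 at -0.02 ± 0.21 (adjusted p = 0.972). The summed RPKM of the cycling list was 226 to 285 in control and 236 to 341 in Sel1l CKO libraries, which overlapped. Traf6, a neighbour of the Rag locus, averaged 4.01 ± 0.179 RPKM in control cells, against 3.86 ± 0.340 RPKM in Sel1l CKO cells, which also overlapped.

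Among 16 transcription factors listed for their roles at Rag or Dntt, 6 had values above 0 and 10 below, with a median of -0.08. Id3, which encodes an inhibitor of E proteins, was lowest at -0.67 ± 0.28 (SE, limma adjusted p = 0.243), and Ikzf1, the gene of the zinc finger factor Ikaros, was highest at 0.14 ± 0.08 (adjusted p = 0.402). Bcl11b, Runx1 and Ets1, factors of early T cells singled out after their values were seen, were the others with an unadjusted p under 0.05. Bcl11b averaged 6.69 ± 0.813 RPKM in control cells, against 5.13 ± 0.596 RPKM in Sel1l CKO cells (SD, n = 4), without overlap and with a limma adjusted p of 0.117. Runx1, whose family's motif is in the Rag1 window printed above, was at 1.32 ± 0.110 and 1.09 ± 0.175 RPKM. Its groups overlapped (limma adjusted p = 0.245), and a link to the Rag1 values was not tested. Ets1 was at 6.65 ± 0.130 and 6.03 ± 0.294 RPKM, without overlap (limma adjusted p = 0.227). Tcf3, which encodes E proteins that bind E-boxes, was at 18.9 ± 1.11 and 20.7 ± 1.37 RPKM, and Tcf12 at 1.62 ± 0.0333 and 1.55 ± 0.0592 RPKM; for both the groups overlapped.

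**Figure D5:**
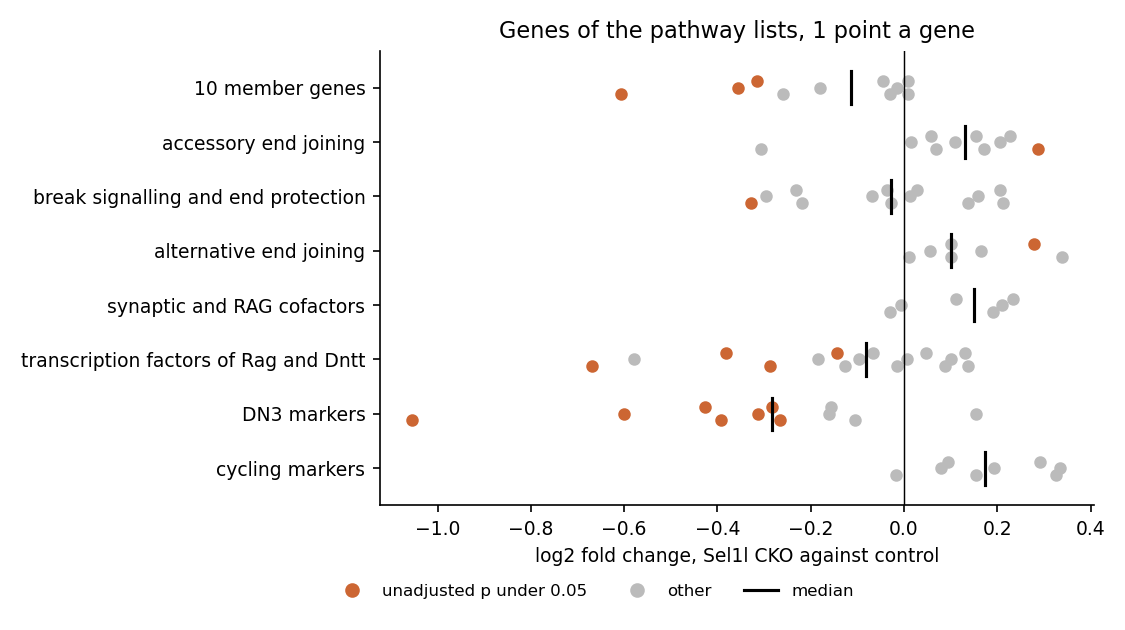
Log2 fold change of each gene (1 point) in Sel1l CKO against control libraries, for the 10 members, the lists of related genes, DN3 markers and cycling markers, with a black bar at each list's median and orange for an unadjusted p under 0.05. The medians are -0.11 for the members, -0.28 for DN3 markers, 0.10 for alternative end joining and 0.17 for cycling markers.

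Markers of the sorted stage were present in all libraries, most of them at lower values in Sel1l CKO cells. Among 11 DN3 markers 10 had values below 0, against 53.3% of all tested genes. In limma 7 had an unadjusted p under 0.05, all lower, where 10.1% of all tested genes were lower at that level. None of the 11 passed the adjusted threshold. The median log2 fold change of the 11 was -0.28, and their summed RPKM was 601 to 738 in control and 553 to 585 in Sel1l CKO libraries. Hes1, a Notch target, was lowest at -1.05 ± 0.46 (SE, limma adjusted p = 0.264), and Il2ra, the gene of the CD25 used in the sort, was highest at 0.15 ± 0.09 (adjusted p = 0.394). Summed markers of double-positive thymocytes, a stage with high Rag expression, were at 18.2 to 21.9 RPKM in control and 13.6 to 16.7 RPKM in Sel1l CKO libraries. Markers of B cells, whose precursors also express Rag and Dntt, summed to at most 0.232 RPKM in any library, and the defining Ms4a1 and Pax5 were listed at 0 in all Sel1l CKO libraries. Progenitor markers summed to at least 0.438 RPKM in control and to 0.217 to 0.444 RPKM in Sel1l CKO libraries, myeloid and dendritic markers to 3.51 to 6.19 and 1.91 to 3.97 RPKM, NK markers to 31.1 to 38.3 and 21.7 to 33.9 RPKM (almost all of it Nkg7, while Klrb1c was at most at 0.0198 and Prf1 at 0.0536 RPKM in any library), erythroid markers to 0 to 1.12 and 0.465 to 2.66 RPKM, and post-selection markers to 117 to 182 and 112 to 131 RPKM. Thymic epithelial markers summed to 3.10 to 4.88 RPKM in control and 1.95 to 2.27 RPKM in Sel1l CKO libraries, almost all of it Epcam, a surface gene that thymocytes can also express and the one marker past the adjusted threshold (log2 fold change -0.98 ± 0.14, SE, limma adjusted p = 0.00570). Of its list, Foxn1 and Psmb11, which define these epithelial cells, were at most at 0.00366 and 0.107 RPKM in any library. The part of these markers in the lower values of Dntt, Prkdc and Dclre1c was not tested.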

How the data were processed

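DN3 thymocytes from 4 control and 4 Sel1l CKO libraries were grouped by the genotype in the labels. Paired-end reads of stranded mRNA libraries had been aligned to GRCm38 by the authors with STAR (2.5.2b). HTSeq (2.7) gave their counts for protein-coding genes, and the deposited values are RPKM. How the RPKM values were computed and whether counting used strand are not given in the sources used here. Low values are whole multiples of 1 read when the length is the GENCODE M21 gene span: 11770 of 15624 genes (75.3%) came out whole within 0.02 reads in every library, against 3.24% with exon length. Dividing by the span lowers genes with long introns. Lengths of the remaining genes were solved from the values (Dntt and Lig4 among the members, for which 30249 and 7667 bases were used), which gave reads for all 15856 genes with a value, and levels per kb of exon were made from these reads.

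Log2(RPKM + 0.01) of the 11567 genes with a mean of at least 0.02 RPKM was fitted on genotype alone in limma 3.58.1 (R 4.3.3), with its trend option and Benjamini-Hochberg adjustment over all tested genes. A filter at a mean of 1 RPKM, run as an alternative, drops 5 of the 10 members. Fold changes are on that scale, which understates those of low genes. Exact permutation tests of mean RPKM and of ratios were two-sided over 70 assignments. Tables and figures were made in Python 3.11.15 with pandas 2.3.3, scipy 1.17.1 and matplotlib 3.10.9. The test was checked on simulated data, and it missed many of the smaller changes put in there. The alternatives were 3 other pseudocounts, other filters, 3 other scalings, limma without trend, array weights, a replicate block, a batch term that sets replicates 1 and 2 apart from 3 and 4, voom on recovered reads, and each library left out in turn. The members, lists and tests were chosen with earlier results of these data known. Besides the 10 members, Sel1l and genes that overlap a member, the rule names genes of the lists past the adjusted threshold and the largest rise and fall of each list of related genes. Mre11, H2afx and Iftap were read under the names Mre11a, H2ax and B230118H07Rik, and Shld3, Siglech and Ncr1, among listed genes with no matching name, were not analysed here.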

Additional observations from a re-analysis of the deposited data

How the results depend on the processing

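No member passed an adjusted p of 0.05 in any of the 22 alternative limma fits that tested it, and the 2 fits with a mean of at least 1 RPKM did not test Xrcc4, Xrcc5, Prkdc, Dclre1c or Nhej1; the lowest values were 0.0767 for Dclre1c and 0.0918 for Prkdc, both with voom, and 0.106 for Dntt, with the batch term. The count of all genes called, 392, became 618 with array weights, which gave Sel1l CKO replicates 1 and 2 the lowest weights (0.425 and 0.372), 256 with the replicate block, and 228 to 332 with 1 library left out. The 62 genes of the related lists went from 0 called to 1, Parp1, with a mean of at least 1 RPKM, with that filter and a pseudocount of 0.1, with the batch term and with voom. Changes of sign occurred only for 4 members near 0. With 1 library left out, the log2 fold change lay between -0.056 and 0.064 for Xrcc4, -0.032 and 0.071 for Xrcc5, -0.098 and 0.049 for Lig4, and -0.113 and 0.071 for Nhej1. It became -0.0027 with voom for Xrcc4. With array weights it became -0.055 for Xrcc5 and 0.053 for both Lig4 and Nhej1. Quantile normalization gave 0.113 for Nhej1. The cause was not tested. Same-numbered libraries of the 2 genotypes had correlations of their deviations of 0.149, 0.0963, 0.416 and 0.0181 over 6512 genes. Not every library correlated best with its own number, so same-numbered libraries were not treated as pairs. Control replicate 3 correlated at 0.416 and 0.384 with Sel1l CKO replicates 3 and 4, and at -0.32 and -0.36 with replicates 1 and 2. Control replicates 1 and 2 correlated positively with Sel1l CKO replicates 1 and 2 (0.0963 to 0.258) and negatively with replicates 3 and 4. Control replicate 4 stayed between -0.0656 and 0.0929. What these sets of replicates share was not tested. The replicate block called 0 of the 10 members. The counting CV was largest for Nhej1 and Xrcc4, at 6.38% and 4.55% in control libraries. Their observed CVs there were larger, at 13.9% and 13.6%.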
